A study of Mus musculus with 6 samples.

Results

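The protein components of the cytosolic ribosome were followed in bone marrow of anemic mice 6 h after an injection of recombinant human erythropoietin (rHuEPO). They were chosen by name. A gene was included when its probe's RefSeq accession belonged to a protein-coding gene whose symbol was Rpl or Rps followed by a number, or was Rpsa, Rplp0, Rplp1 or Rplp2, with the ribosomal S6 kinases left out. The rule found 83 genes among the 14861 tested. It took in 30 proteins of the small subunit, 43 of the large subunit and the 3 stalk proteins. It also took in 5 paralogs (Rpl3l, Rpl22l1, Rpl36al, Rpl39l and Rps27l) and 2 assembly factors whose symbols fit the pattern (Rpl7l1 and Rps19bp1). A further 6 symbols that fit the rule were not analysed here.

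All 6 samples were bone marrow cells from the femurs of male ISAM mice (Epo-/-::3.3K-Epo3'-Tg458, mixed strain) aged 10 weeks. Both Epo alleles are deleted in these mice and an Epo transgene is carried in their place, and every group shared this genotype. The 3 rHuEPO samples were taken 6 h after 3000 U/kg was injected into the peritoneal cavity. The control arm held 2 samples taken 6 h after phosphate-buffered saline (PBS) was injected by the same route, and 1 sample from an untreated mouse. Replicate numbers are given without any animal being named, so the spread behind each p-value is that of these samples and may be partly technical. Precision is limited by the number of arrays. Each sample was hybridised to its own 1-colour Agilent array. A reading is the log2 signal of a probe minus the array's 75th percentile, so that 0 stands for the 75th percentile and a difference of 1 is a doubling.

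The ribosome translates messenger RNA into protein. Its small subunit reads the message and its large subunit joins the amino acids, and each is built in the nucleolus from ribosomal RNA and proteins. Most mammalian ribosomal protein mRNAs start with a run of pyrimidines, the 5′ terminal oligopyrimidine (TOP) tract, through which mTORC1 and LARP1 control their translation, so that output can change without a change in mRNA. Red cell precursors depend on a high ribosome supply. Loss of 1 copy of RPS19, RPL5 or RPL11 in humans causes Diamond-Blackfan anemia, and loss of RPS14 contributes to the anemia of the 5q- syndrome.

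The start of the transcript is shown first because the TOP tract is what these genes are known to share and because the mRNA levels below do not report on it. Sequences come from RefSeq on GRCm38.p6, which gave 76 windows for 64 of the 83 genes. In the 50 bases from the annotated start, an unbroken run of at least 8 C or T bases on the transcribed strand was found in 41 of these windows (53.95%), against 17.28% of all 21262 windows. A run of at least 10 was found in 31 (40.79%), against 7.473%. The sequence CCGGAAG, on either strand of the 300 bases from 250 before to 50 after the start, was found in 27 (35.53%) against 11.56%. CACGTG was found in 8 (10.53%) against 7.836%. A match is a description of letters only. The following 28-base stretches show the longest run in capitals for 8 members picked as examples and for both assembly factors. Where a gene had more than 1 annotated start, the window with the longest run is shown. Bases before the annotated start were not searched. In Rps6, Rpl38 and Rps27 the run filled the first bases searched. C or T bases also lie directly before the start in these genes, in lower case, so their runs are longer than the capitals show. The run began 1 base after the start in Rpl22l1, 2 after it in Rpl13a, 13 after it in Rpl11 and 39 after it in Rps19. In Rplp2 the longest run was 6 bases and began 43 after the start. In Rpl7l1 and Rps19bp1 the longest run was 3 bases. The runs shown for Rps19 and Rpl7l1 reached the end of the 50 bases searched, so their full lengths are not known.
Rps6 (chr4:86857346-86857373, minus strand): tcgggcCTCTTTTTCgtgacgcctccca
Rpl38 (chr11:114668574-114668601, plus strand): ctcgttCTTTCCCCgttctcttcggttc
Rps27 (chr3:90213627-90213654, minus strand): ttcgctCCTTTCCggcggtgacgacctc
Rpl22l1 (chr3:28805503-28805530, plus strand): agcccgTTCTCTTCCCacggctgcagct
Rpl13a (chr7:45128722-45128749, minus strand): acaagaCCTCCTCCTTTCCCaggcggct
Rpl11 (chr4:136053359-136053386, minus strand): cggaagTCTCCCTCTCTCTTCCTgttct
Rps19 (chr7:24884614-24884641, plus strand): cccgggaaaccccgtcgTTCCCTTTCCC
Rplp2 (chr7:141447673-141447700, plus strand): aggtcgcacgcgtgaggtctgTCCCCCg
Rpl7l1 (chr17:46782607-46782634, minus strand): agatggcggaggaagggtgagtgtgTCT
Rps19bp1 (chr15:80264266-80264293, minus strand): gcggggCTCggaaacatgtcggcggcgt

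Before the treatment is considered, the arrays have to be set side by side, because they did not read the ribosomal protein genes alike. The untreated and rHuEPO replicate 1 arrays were on slide 1 and the other 4 arrays on slide 2, and each slide had its own scan. Taken as the median over the 83 genes of each reading minus that gene's mean over the 6 arrays, the level was -0.26 on the untreated array and -0.23 on rHuEPO replicate 1. It was 0.18 on PBS replicate 1, 0.01 on PBS replicate 2, 0.00 on rHuEPO replicate 2 and 0.29 on rHuEPO replicate 3. The same median over all genes tested stayed between -0.07 and 0.07. The lowest reading of a member was on a slide 1 array in 78 cases (94% of members, 49.9% of all genes). The highest was on rHuEPO replicate 3 in 70 cases (84.3% of members, 22.1% of all genes). Both arms thus held a low array, and the rHuEPO arm also held the highest array.

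**Figure D1:**
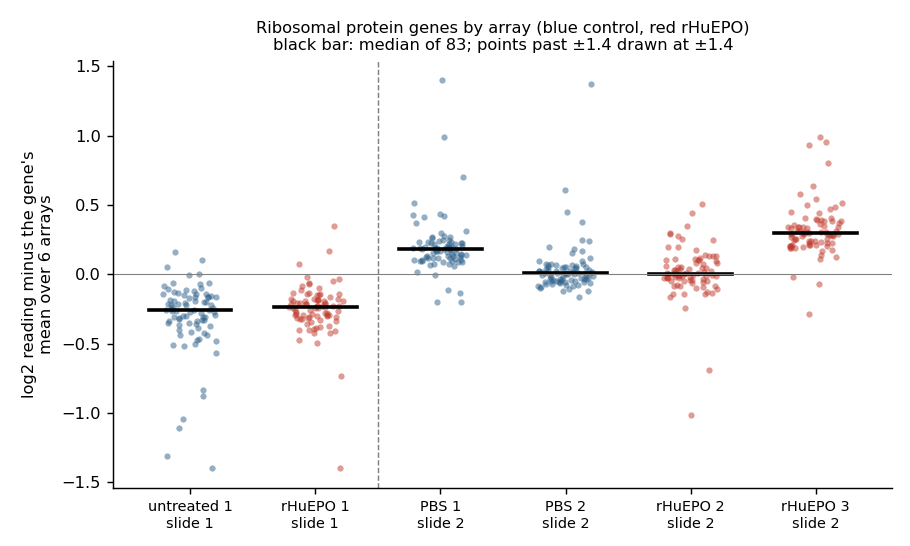
Each point is 1 of the 83 ribosomal protein genes on 1 array, drawn as its log2 reading minus its mean over the 6 arrays, with control arrays in blue, rHuEPO arrays in red and the median as a black bar; points beyond 1.4 in either direction are drawn at that value. The 2 slide 1 arrays have medians of -0.26 and -0.23, and rHuEPO replicate 3 has the highest median, 0.29.

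Against this spread, no ribosomal protein gene passed the test for a change after rHuEPO. With limma, 0 of 83 passed an adjusted p of 0.05 in either direction, where 10 genes of 14861 (0.0673%) passed as higher and 0 as lower. At an unadjusted p under 0.05 there were also 0 members, where 2.49% of all genes were higher and 2.48% lower. With slide as a block in limma, 0 members passed, where 0.0606% of all genes were higher, and 3 had an unadjusted p under 0.05, Rps19bp1 and Rpl7l1 as higher (5.76% of all genes) and Rpl39l as lower (5.61%). In no member were the 3 rHuEPO readings all above the 3 control readings (5.07% of all genes) or all below them (5.32%). Among all members 57 had a fitted difference within 0.1 of 0, which is less than the median SE of 0.22, or 0.14 with the slide block. In bulk marrow, fewer cells of a type and less RNA per cell cannot be told apart.

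The spread between arrays bounded the change for most members. With slide as a block, the 95% interval of the difference lay within 0.5 of 0 for 59 members (71.1%), against 34.4% of all genes, and within 1 of 0 for 80 (96.4%), against 85.4%. Only Rpl10, Rpl30 and Rpl39l had an interval reaching past 1. Without the block the interval lay within 1 of 0 for 76 members (91.6%), against 75.9% of all genes.

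The direction of the members' differences changed with the arrays included, and the number above 0 also changed with the scaling. The difference was above 0 in 62 of 83 members (74.7%), against 47.7% of all genes, with a median of 0.05 against -0.01. Without rHuEPO replicate 3 it was above 0 in 15 members with a median of -0.09, against -0.04 over all genes. Without the untreated array, or against PBS alone, it was above 0 in 18 members (21.7%, against 40.5% of all genes). The median was then -0.06, and also -0.06 over all genes. Leaving an array out, or using PBS alone, shares the slides unequally between the arms. A part of slide in these shifts therefore cannot be set apart. The shift without rHuEPO replicate 3 also holds that array's own level within slide 2. It was 0.29 there, against 0.18 and 0.01 on the PBS arrays and 0.00 on rHuEPO replicate 2. Against PBS alone limma called 0 members, where 0.0202% of all genes were higher. At an unadjusted p under 0.05, 0 members were higher (1.97% of all genes) and 1, Rpl39l, was lower (2.01%). Within slide 1, rHuEPO replicate 1 minus the untreated array had a median of 0.01. Within slide 2 the rHuEPO arrays minus the PBS arrays had a median of 0.06, with 65 members above 0. Over all genes these medians were 0.00 and -0.02. The untreated array minus PBS had a median of -0.34, and Rpl4 was the only member above 0 (1.2%, against 40.9%). The untreated array was on slide 1 and both PBS arrays on slide 2, so this comparison cannot be told apart from slide. In that comparison limma called 0 members and 0 of all genes, with 4 members lower at an unadjusted p under 0.05 (Rpl10, Rpl30, Rpl39 and Rps3a1; 4.82%, against 3.62% of all genes) and 0 higher (1.77%).

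**Figure D2:**
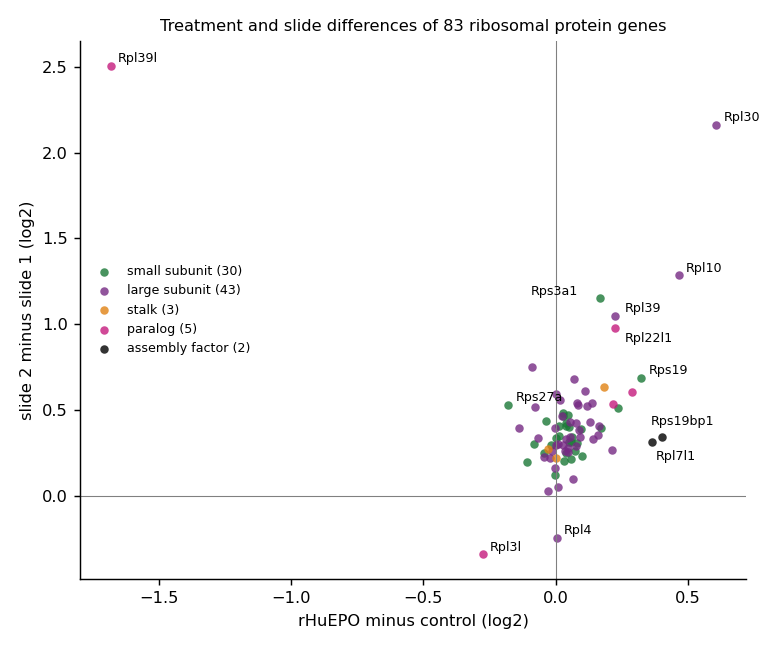
Each point is 1 ribosomal protein gene, with its rHuEPO minus control difference on the horizontal axis and its slide 2 minus slide 1 difference on the vertical axis, both log2, coloured by role. Most points lie within 0.1 of 0 for treatment and above 0 for slide, and Rpl39l, Rpl30 and Rpl10 stand far out on both axes.

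In the small subunit the 30 differences ran from -0.18 to 0.32 with a median of 0.04. Rps19, the Diamond-Blackfan gene most often mutated, read 2.16 in the untreated sample, 2.76 and 2.61 after PBS, and 2.27, 3.12 and 3.12 after rHuEPO. It had the highest difference of the subunit, 0.32 ± 0.29 (SE, n = 3 per arm; limma adjusted p = 1), and the arms overlapped because rHuEPO replicate 1 lay below both PBS arrays. Fitted with a slide block, its SE was 0.13 and its limma adjusted p 0.446. Rps14, the 5q- syndrome gene, read 8.53, 8.76 and 8.67 in the control samples, in the same order, and 8.55, 8.70 and 8.89 after rHuEPO, a difference of 0.06 ± 0.17. Rps6, the substrate of the S6 kinases, read 5.84, 6.09 and 6.09 against 5.65, 6.11 and 6.38, a difference of 0.04 ± 0.23. In both genes the arms overlapped.

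Of the other small subunit proteins named, none passed the test. Rpsa, which also serves as a laminin receptor, differed by 0.05 ± 0.21. Rps27a, made as a fusion of ubiquitin with a ribosomal protein, had the lowest difference of the subunit, -0.18 ± 0.30. Its readings were 5.10, 6.16 and 5.38 in control samples and 5.11, 5.41 and 5.59 after rHuEPO, and PBS replicate 1 alone lay above the rest. Rps4x, encoded on the X chromosome, differed by -0.11 ± 0.23. Rps2, Rps16 and Rps18, among the brightest members, differed by 0.10 ± 0.19, 0.01 ± 0.22 and 0.03 ± 0.21. Rps3a1, whose only tested probe had a mean reading of 0.12, read -0.92, 0.53 and 0.50 against -0.38, 0.63 and 0.36. Its low readings were both on slide 1.

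In the large subunit the 43 differences ran from -0.14 to 0.61 with a median of 0.05. Rpl5 and Rpl11 form the 5S particle with the 5S ribosomal RNA, which binds Mdm2 when ribosome assembly is disturbed. Rpl5 read 8.53, 8.60 and 8.49 in the control samples and 8.47, 8.36 and 8.69 after rHuEPO, a difference of -0.03 ± 0.17 with a 95% interval from -0.43 to 0.37. Rpl11 read 7.32, 7.92 and 7.81 against 7.47, 7.86 and 8.14, a difference of 0.14 ± 0.25. Rpl5 was near level over all 6 arrays, whereas Rpl11 was low on both slide 1 arrays.

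Rpl13a, known for a role in translational control outside the ribosome, differed by -0.00 ± 0.21. Rpl10a differed by -0.09 ± 0.34, and Rpl38, which is needed for the translation of Hox mRNAs, by 0.13 ± 0.24. Rpl21 had the lowest difference of the subunit, -0.14 ± 0.26. Rpl7a and Rpl37a, among the brightest members, differed by 0.07 ± 0.17 and -0.04 ± 0.18, and Rpl14 and Rpl31, among the dimmest, by 0.08 ± 0.24 and 0.07 ± 0.29. The probes of Rpl29 ran from -0.43 to 0.17, and the brightest of them gave 0.08 ± 0.24.

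In the members with the highest differences of the large subunit, the untreated array read lowest. Rpl30 read 0.47 in the untreated sample, 3.98 and 3.59 after PBS, and 2.61, 3.33 and 3.92 after rHuEPO, a difference of 0.61 ± 0.89. The untreated reading lay more than 2 below every other array. Without the untreated array the difference was -0.50 ± 0.39. Rpl10, which is placed late in large subunit maturation, read 4.21, 5.94 and 5.70 against 5.11, 5.63 and 6.51, a difference of 0.47 ± 0.53. Rpl39, a small protein of the exit tunnel, read 4.98, 6.60 and 6.33 against 5.79, 6.33 and 6.47, a difference of 0.23 ± 0.43. Without the untreated array the differences of Rpl10 and Rpl39 were -0.07 ± 0.41 and -0.27 ± 0.27. In each of these genes rHuEPO replicate 1 was the next lowest array.

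The stalk proteins recruit the translation factors that hydrolyse GTP. Rplp0, often used as a reference gene, read 8.22, 8.38 and 8.25 in the control samples and 8.05, 8.26 and 8.54 after rHuEPO, a difference of 0.00 ± 0.19 with a 95% interval from -0.44 to 0.44. Rplp1 differed by 0.18 ± 0.29 and Rplp2 by -0.03 ± 0.20. The arms overlapped in each.

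**Figure D3:**
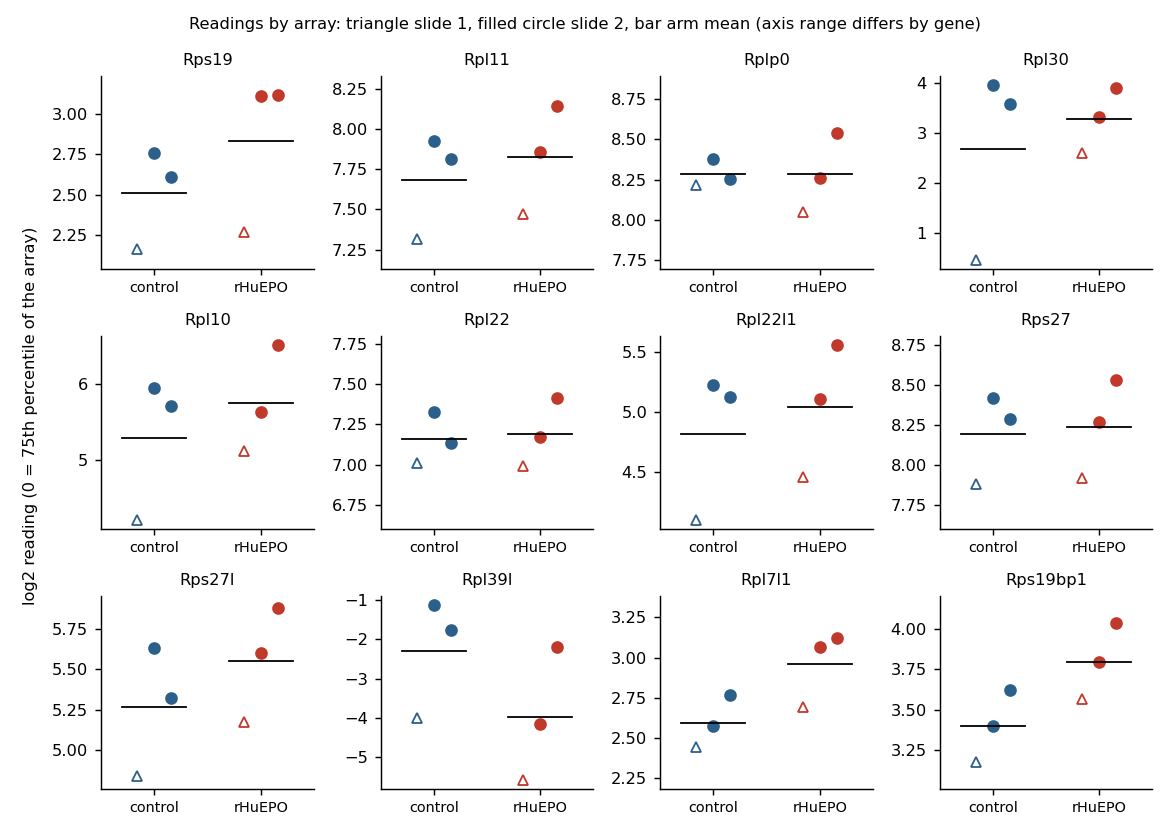
Log2 readings of 12 members on each array, control in blue and rHuEPO in red, with open triangles for slide 1, filled circles for slide 2 and a bar for the mean of each arm; the range of the vertical axis differs between genes. In most panels the triangle is the lowest point of its arm. In Rps19, Rps19bp1 and Rpl7l1 each rHuEPO point exceeds the control points of the same slide.

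Paralogs were set beside their parent genes by their differences, since readings of different probes are not comparable. Rpl22, which with Rpl22l1 binds RNA and is known from T cell development, differed by 0.03 ± 0.19 and Rpl22l1 by 0.23 ± 0.39. Rpl22l1 read 4.09, 5.22 and 5.12 against 4.45, 5.11 and 5.56, low on both slide 1 arrays. Rps27 differed by 0.05 ± 0.23, and its p53-induced paralog Rps27l by 0.29 ± 0.28, from readings of 4.84, 5.63 and 5.32 against 5.17, 5.60 and 5.88. Rpl36al differed by 0.22 ± 0.25. Rpl3 differed by 0.21 ± 0.22 and its muscle paralog Rpl3l, near the lower end of the scale, by -0.28 ± 0.30. None of these passed the test, and differences between parent and paralog were not tested.

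Rpl39l, known from testis, had the lowest difference of all members. It read -4.02, -1.11 and -1.76 in the control samples and -5.60, -4.15 and -2.18 after rHuEPO, a difference of -1.68 ± 1.00 (limma adjusted p = 1). Fitted with a slide block, its limma adjusted p was 0.34 and the 95% interval ran from -2.92 to -0.44. Its probe was well above background on both PBS arrays and on rHuEPO replicate 3, and on none of the others, so its 3 lowest readings were not well above background and its difference is uncertain in size. The brightest probe of every other member except Rpl3l was above background on all 6 arrays, which makes 81 of 83.

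The 2 assembly factors had the smallest p-values of the members in the fit without a slide block, and came after Rpl39l with it. Rps19bp1, a nucleolar partner of Rps19 also known as Aros, read 3.18, 3.40 and 3.62 in the control samples and 3.56, 3.79 and 4.04 after rHuEPO. The difference was 0.40 ± 0.21, and only PBS replicate 2 and rHuEPO replicate 1 overlapped. Rpl7l1, a relative of Rpl7 found in large subunit precursors, read 2.45, 2.58 and 2.76 against 2.69, 3.06 and 3.12, a difference of 0.36 ± 0.19. Fitted with a slide block, the limma adjusted p was 0.383 for Rps19bp1 and 0.387 for Rpl7l1, so neither passed. Each was higher than its slide's controls on all 3 rHuEPO arrays, which also held for Rps19 and Rpl36al. The share of all genes with this trait was not counted. On slide 2 alone the arms did not overlap, in either direction, in 8.43% of members and 36.7% of all genes. Rpl7 itself differed by 0.05 ± 0.19.

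The differences between slides were larger than those between arms. This contrast was added after the data had been seen. Slide and scan cannot be told apart. Slide 1 holds 1 array of each arm, and its control is the only untreated sample. Slide 2 minus slide 1 had a median of 0.35 over the members and 0.11 over all genes, and was above 0 in 81 members (97.6%, against 60.4%). Both slide 1 arrays lay below all 4 slide 2 arrays in 68 members (81.9%, against 28.4% of all genes), and above them in Rpl4 alone (1.2%, against 13.5%). Limma called 8 members higher on slide 2 (9.64%, against 7.4% of all genes) and 0 lower, where 3.47% of all genes were lower. At an unadjusted p under 0.05, 35 members were higher (42.2%, against 22.3%) and 0 lower, where 10.9% of all genes were lower. The 8 were Rpl10, Rpl22l1, Rpl24, Rpl31, Rpl39, Rpl39l, Rps3a1 and Rps19. Of these, Rpl39l passed the filter on dim probes through slide 2 arrays alone, so its call cannot be weighed. Among genes above background on all 6 arrays, 7 of 81 members were called higher (8.64%, against 7.17% of 13343 genes). The share called was near the background, while the shared direction was not. Without the untreated array or without rHuEPO replicate 1, 2 or 3, 0 members were called, where 1, 0, 3 and 4 of all genes were, so that loss was shared by all genes. Without PBS replicate 2, 3 members and 1468 of all genes were called.

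The size of the slide difference followed the size of the signal in other genes too. Among genes that are not members, the median slide difference was -0.03 for mean readings below -2, 0.09 from 0 to 2, 0.28 from 4 to 6 and 0.33 from 6 to 8. Most members lay at the bright end, with 43 between 6 and 8 and 19 between 8 and 10. Their medians there were 0.34 and 0.26, against 0.33 and 0.22 for the other 316 and 44 genes. The 9 members between 4 and 6 had a median of 0.53. After quantile normalization, which gives all arrays the same distribution of signals, the members' median slide difference was 0.07 against 0.03 for all genes and 60 members were above 0 (72.3%, against 53.3%). After it 25 members (30.1%, against 22.1%) had both slide 1 arrays below all slide 2 arrays, and limma called 3 (Rpl22l1, Rpl39l and Rps3a1; 3.61%, against 5.61%), or 2 of 81 without members that were dim on any array (2.47%, against 5.01%). With median scaling limma called 32 (38.6%, against 17.8%). With normexp background correction the median was 0.02, and 0 were called, of members and of all genes alike. Normexp estimated a background of -486 on PBS replicate 2, against 3.351 to 9.176 on the others. No slide contrast without that array was made, so this setting cannot be weighed.

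**Figure D4:**
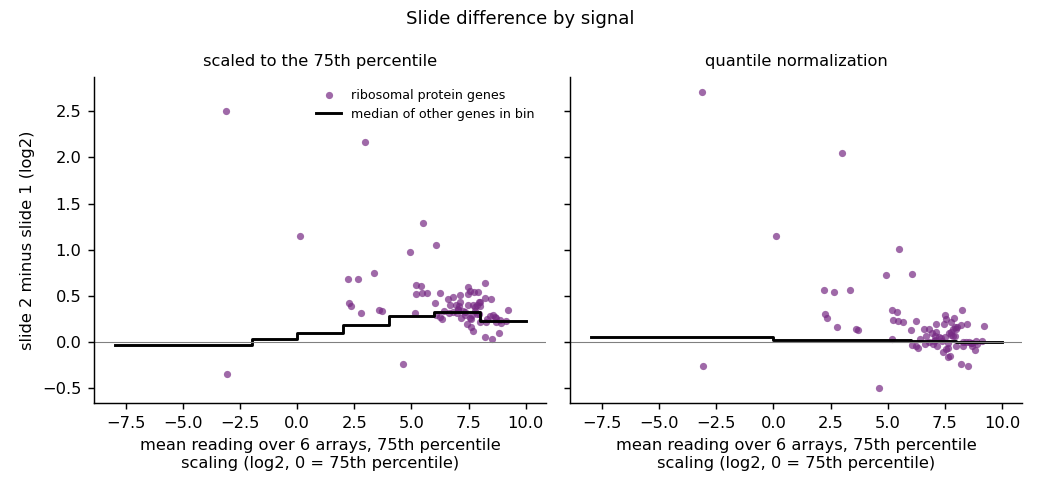
Slide 2 minus slide 1 difference (log2) of each ribosomal protein gene against its mean reading, with the black line giving the median of all other tested genes in each range of readings, after scaling to the 75th percentile on the left and after quantile normalization on the right. On the left the line climbs to 0.33 between readings of 6 and 8 and most members lie along it, and on the right both lie near 0, with Rpl39l and Rpl30 far above.

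Marker genes of marrow cell types also differed between arrays. Of the markers listed for each cell type, 10 of 10 for erythroblasts and 10 of 12 for neutrophils were tested. Summed linear readings of the 10 neutrophil markers were 1898 and 1940 on slide 1 and 1998 to 2577 on slide 2. Their median slide difference was 0.32, and 0.03 after quantile normalization. With 75th percentile scaling it was 0.95 for megakaryocyte, 0.21 for monocyte and macrophage, and -0.03 for erythroblast markers. For progenitor, T and NK cell and B cell markers it was -0.25, -0.30 and -0.77. The 10 erythroblast markers summed to 2336 and 2383 on slide 1 and 2083 to 2452 on slide 2, and to 2083 to 2383 in control and 2093 to 2452 in rHuEPO samples. These sums are carried by the brightest probes, such as Hba-a1 and Hbb-bt. By their differences, 8 of the 10 were above 0 after rHuEPO (47.7% of all genes) with a median of 0.40. In 3 the rHuEPO arrays were all above the controls (5.07% of all genes). An unadjusted limma p under 0.05 was found in 2, both higher (Tfrc 0.97, Rhag 0.87; 2.49% of all genes), while limma called 0. Monocyte and macrophage markers had 7 of 9 above 0 (median 0.31, 2 with arms apart). T and NK cell markers also had 7 of 9 (median 0.17, 2 with arms apart). Medians of the other lists ran from -0.23 (B cell) to -0.00 (neutrophil), with no arms apart. The 9 B cell markers ranged from 34.45 on PBS replicate 1 to 154.8 on PBS replicate 2, and the 6 megakaryocyte markers from 54.4 on rHuEPO replicate 1 to 248.4 on rHuEPO replicate 2. Monocyte and macrophage markers (9) summed to 66.89 to 71.62 on slide 1 and 74.69 to 97.33 on slide 2, T and NK cell markers (9) to 33 to 45.06 and progenitor markers (6) to 21.45 to 27.58 over all arrays. The part of cell composition in the ribosomal protein readings was not tested.

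Lists of genes that work with the ribosomal proteins were read from the same fit, and limma called 0 of each. At an unadjusted p under 0.05 there were 6 of 20 subunit maturation factors, 4 of 78 mitochondrial ribosomal proteins, 4 of 14 genes of the p53 list and 0 of the others. Among all genes it was 739 of 14861, 2.49% as higher and 2.48% as lower, so the mitochondrial count was near that share. Other ribosomal and translation machinery genes, such as elongation factors, had 14 of 19 differences above 0 with a median of 0.09. Btf3, part of the nascent chain complex, differed by 0.28 ± 0.21, and Npm1, a nucleolar chaperone, by 0.19 ± 0.17. Chaperones and maturation factors of the subunits, a list that includes Rps19bp1, had 18 of 20 above 0 with a median of 0.47. In 7 of 20 the rHuEPO readings were all above the control readings, against 5.07% of all genes. Bysl, needed for small subunit maturation, read 3.08, 3.22 and 3.64 against 3.83, 4.05 and 4.44, a difference of 0.80 ± 0.24 (limma adjusted p = 0.788), and Pno1, its partner in the small subunit precursor, differed by 0.63 ± 0.21. The difference between lists was not tested.

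Mitochondrial ribosomal proteins, which build the separate ribosome of that organelle, had 74 of 78 differences above 0, against 47.7% of all genes, with a median of 0.22, and 9 with the rHuEPO arrays all above the control arrays, against 5.07%. Mrps18b differed by 0.69 ± 0.23 and Mrpl12 by 0.63 ± 0.23. Genes of mTORC1 and of TOP mRNA control had 7 of 15 above 0 with a median of -0.00. Larp1, which binds TOP mRNAs, differed by 0.61 ± 0.36 and Tsc1, which restrains mTORC1, by -0.40 ± 0.34. Of p53 and its targets, 7 of 14 were above 0 with a median of 0.00. In 2 of the 14 the rHuEPO readings were all above the control readings (5.07% of all genes), and in 1 all below them (5.32%). The 2 were Pmaip1, which differed by 0.99 ± 0.28, and Aen, by 0.96 ± 0.31, and neither passed.

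**Figure D5:**
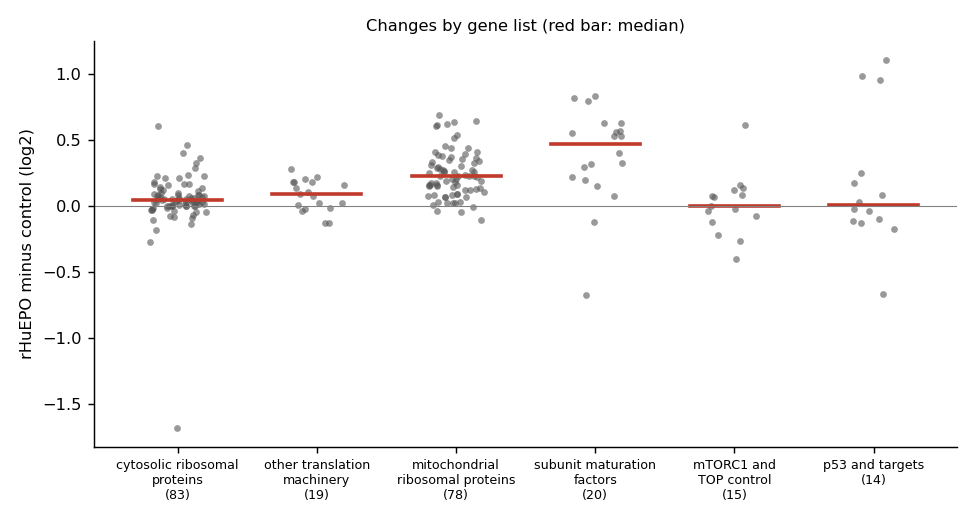
Each point is 1 gene's rHuEPO minus control difference (log2), by gene list, with the number of genes tested in brackets and a red bar at the median. The 83 cytosolic ribosomal proteins gather around 0.05, and the medians of mitochondrial ribosomal proteins and subunit maturation factors are 0.22 and 0.47.

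The members lie on 19 chromosomes, 13 of them on chromosome 7. Ribosomal protein genes have many processed pseudogenes of near-identical sequence, and how far their transcripts add to a probe's signal was not tested. Several probes were tested for 28 members, and in 9 of these the probes disagreed in sign.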

How the data were processed

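RNA of mouse bone marrow was labelled with Cy3 on 6 arrays, per the labels' protocols. The authors' scanner output gives spot intensity, background-subtracted by Agilent Feature Extraction (version 10.7.3.1 per the file headers). A deposited table of log2 values came with no stated scaling. It matched the scanner signals once these were put on a 75th percentile scale, logged and centred by probe (lowest slope 0.9985, median absolute difference at most 0.01364), which settles its direction. By column its medians were -0.103 (untreated), -0.0569 and -0.0976 (PBS), and 0.117, 0.0111 and 0.0867 (rHuEPO).

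Readings are log2 processed signals less the array's 75th percentile, without the 1639 control spots and outlier spots. No spot was saturated. Spots of a probe were averaged and 17 probes lacked a usable value. Probes well above background on at least 3 arrays were tested, 19600 of 41157. Accessions named 26670 probes (64.8%) through RefSeq on GRCm38.p6, used for names and transcript starts. Start windows on chromosome 18 were left out. Each gene took its brightest probe. Array 75th percentiles were 221.4 to 264.3. Gene spots well above background were 46.24% to 46.6% on rHuEPO arrays and 48.61% to 50.5% on control arrays, and negative controls had median signals of 4.733 to 5.506 and 3.739 to 4.029. Arrays correlated at 0.9752 to 0.989, so none was treated as a repeat.

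Limma 3.58.1 in R 4.3.3 (lmFit and eBayes, two-sided, Benjamini-Hochberg over 14861 genes, threshold 0.05) was tested on simulated data. With 200 genes changed, it recovered 24% of 2-fold, 70% of 4-fold, 96% of 8-fold and 92% of 16-fold changes, with 3 false calls. Most 2-fold changes were thus missed. A 3-group fit gave PBS and untreated contrasts. Members, panel, lists and tests were chosen with earlier results of these data known. Named members are a fixed panel, the 6 highest and 6 lowest differences, the 6 smallest p, the 5 brightest and 5 dimmest, and those whose probes differ in sign by over 0.5. Of each other pathway list the 2 smallest p are named. Rpl4, Rpl24 and Rpl36al were named after their values were seen. Alternatives were quantile and median scaling, normexp (offset 50), other filters, the deposited table, all probes, PBS alone, slide or replicate blocks, array weights, slide 2 alone and each array left out. Normexp used median signals, as the files used here carry no mean signal.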

Additional observations from a re-analysis of the deposited data

How the results depend on the processing

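No ribosomal protein gene was called for rHuEPO against control under any alternative, and the smallest limma adjusted p of a named member over all of them was 0.264. The number of all genes called, 10, was 1 with normexp, 2 with normexp without PBS replicate 2, 1 without a filter, 5 with the filter on all 6 arrays, 3 with PBS alone, 26 with array weights and 3 on slide 2 alone. It was 1 to 6 with each array left out: 1 without PBS replicate 1 or rHuEPO replicate 2 or 3, 3 without the untreated array or rHuEPO replicate 1, and 6 without PBS replicate 2. The number of members above 0, 62, was 18 with PBS alone and 15 to 79 with each array left out. By scaling it was 48 with quantile normalization, 75 with median scaling and 81 with normexp, or 59 with normexp without PBS replicate 2. The number of members with separated arms, 0, was 2 with quantile normalization (2.41%, against 10.6% of all genes), 3 with normexp (3.61%, 11.9%), 1 with PBS alone (1.2%, 18.3%), 7 on slide 2 alone (8.43%, 36.7%) and 0 to 6 with each array left out (0 to 7.23%, 13.6% to 27.8%). The members' median difference, 0.05, was 0.517 with normexp, and -0.09 to 0.18 with each array left out. Normexp estimated a background of -486 on PBS replicate 2, against 3.351 to 9.176 on the others, and without that array the median was 0.09. That fit and the slide contrast were added after seeing the data. The median over slides, 0.347, was 0.0717 with quantile normalization and 0.023 with normexp. The 8 calls (1616 among all genes) were 3, 32 and 0 with quantile, median and normexp scaling (1388, 3096 and 0), and 0 to 7 with each array left out (0 to 2462). Of 36 named members, 18 changed sign against PBS alone, 16 without rHuEPO replicate 3, 5 under quantile, 4 under median scaling and 8 under normexp. Using PBS alone or leaving an array out shares the slides unequally between the arms, so a part of slide in those shifts cannot be set apart. The shift without rHuEPO replicate 3 also holds that array's high level within slide 2. The cause of the shifts was not tested.

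With the replicate number as a block, 1 of all genes was called, 9 members were above 0 and the median was -0.10. Deviations of same-numbered PBS and rHuEPO arrays from their group means correlated at -0.0711 and -0.159. These values cannot settle whether the numbers mark pairs, since PBS replicate 1 and rHuEPO replicate 1 are on different slides. In the block fit rHuEPO replicate 3 has no partner and adds nothing to the estimate.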
